A study of Mus musculus with 6 samples.

Results

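The genes described here are the Wnt ligands, their receptors and secreted modulators, and the crypt stem cell genes that this pathway controls. They were chosen by name: all Wnt, Frizzled (Fzd), R-spondin (Rspo), Dickkopf (Dkk) and Sfrp genes of the table, with Lgr4, Lgr5, Lgr6, Ascl2, Axin2, Rnf43, Znrf3, Lrp5, Lrp6, Porcn, Wls, Wif1 and Notum. The rule gave 54 genes of 32219. They comprise 19 Wnt ligands, 2 genes of Wnt secretion, 4 R-spondins, 10 Frizzled receptors, 2 Lrp co-receptors, 3 R-spondin receptors, 10 secreted inhibitors, and 4 feedback and crypt target genes.

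The data are 6 polyadenylated RNA-seq libraries of mouse intestine, 3 labelled KO and 3 labelled WT. The series' design text names the whole duodenum, the first stretch of the small intestine, and the labelled cell types are epithelium, immune cells and neurons of the gut wall. The knocked-out gene, the promoter or Cre that drove its loss, the sex and age of the mice, and whether each library came from its own animal were not stated by any source used here. The p-values below therefore reflect library-to-library spread alone, part of which could be technical.

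Wnt ligands are secreted lipid-modified proteins. Porcupine, the product of Porcn, attaches the lipid, and Wls carries the ligand to the cell surface. On the receiving cell, a Frizzled receptor with Lrp5 or Lrp6 relays the signal to beta-catenin, which acts with TCF/LEF factors on target genes. In the intestine this signal maintains the stem cells at the crypt base. The ubiquitin ligases Rnf43 and Znrf3 remove Frizzled from the cell surface, and R-spondins, bound to Lgr4, Lgr5 or Lgr6, block this removal. Axin2, Lgr5, Ascl2 and Rnf43 are themselves targets of the pathway.

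Promoters of the crypt targets Axin2 and Ascl2, and of the members with a TCF/LEF motif, are shown because these factors are the nuclear end of the pathway. RefSeq windows on GRCm38.p6, which run from 250 bases before to 50 bases after a gene's start, were matched by symbol for 34 of the 54 genes. The motifs searched were CTTTGAT and CTTTGAA on both strands, which differ in their last letter and so cannot occupy the same place on a strand. Of the 34 genes, 3 held a motif in at least 1 window (8.82%), against 2671 of 27025 genes with a window (9.88%), so the motif was about as common as among all genes. Dkk1 had CTTTGAA on its own strand from base -117, counted from the start, Wnt5b had CTTTGAT on its own strand from base -71, and Wnt11 had CTTTGAT on the opposite strand from base -51. The windows of Axin2 and Ascl2, and both windows of Rnf43, held neither. Lgr5 and Znrf3 were not matched. The 250 bases before the start follow, 5′ to 3′, with the motif in capitals.
Dkk1 (GRCm38.p6, chr19:30549497-30549746, minus strand): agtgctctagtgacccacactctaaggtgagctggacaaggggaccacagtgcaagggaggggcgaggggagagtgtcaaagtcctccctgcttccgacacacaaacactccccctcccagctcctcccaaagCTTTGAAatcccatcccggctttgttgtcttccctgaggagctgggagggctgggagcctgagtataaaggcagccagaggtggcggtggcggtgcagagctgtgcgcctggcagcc
Wnt5b (GRCm38.p6, chr6:119449387-119449636, minus strand): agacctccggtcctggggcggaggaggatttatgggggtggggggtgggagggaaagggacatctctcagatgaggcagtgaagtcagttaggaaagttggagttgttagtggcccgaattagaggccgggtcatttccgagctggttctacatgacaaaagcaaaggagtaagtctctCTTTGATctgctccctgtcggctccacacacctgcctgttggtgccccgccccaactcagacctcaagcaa
Wnt11 (GRCm38.p6, chr7:98834862-98835111, plus strand): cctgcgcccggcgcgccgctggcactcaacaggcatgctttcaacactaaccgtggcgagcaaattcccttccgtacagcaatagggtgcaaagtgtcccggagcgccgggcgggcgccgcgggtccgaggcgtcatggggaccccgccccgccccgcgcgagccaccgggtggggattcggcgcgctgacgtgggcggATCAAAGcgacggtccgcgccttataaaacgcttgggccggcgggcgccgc
Axin2 (GRCm38.p6, chr11:108920099-108920348, plus strand): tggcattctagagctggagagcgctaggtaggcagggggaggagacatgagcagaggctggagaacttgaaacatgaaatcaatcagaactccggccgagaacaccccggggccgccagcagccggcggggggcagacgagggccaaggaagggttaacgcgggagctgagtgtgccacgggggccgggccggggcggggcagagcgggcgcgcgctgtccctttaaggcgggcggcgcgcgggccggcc
Ascl2 (GRCm38.p6, chr7:142969265-142969514, minus strand): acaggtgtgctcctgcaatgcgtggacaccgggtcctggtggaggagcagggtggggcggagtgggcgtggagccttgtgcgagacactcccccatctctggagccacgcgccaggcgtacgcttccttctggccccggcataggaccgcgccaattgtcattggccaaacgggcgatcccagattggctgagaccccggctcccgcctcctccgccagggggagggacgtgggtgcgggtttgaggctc

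The library KO 1 has values for only part of the genome. It listed every gene above 1 elsewhere at 0 on chromosomes 2 to 9, X and M, and chromosome 19 had values only up to Tmem258. Of the 54 genes, 28 lie where KO 1 has values, and the other 26 were listed at 0 there, which is treated as missing. Where KO 1 has values they run high, so its abundances were rescaled by a factor of 2.12, set from the median ratio over 2160 genes. KO 1 also differed in markers of gut position: Gata4, which encodes a transcription factor of the duodenum and jejunum, had a value of 5.19 in KO 1 after rescaling and of 0.43 to 0.63 in the other 5 libraries. Lct, the lactase gene, was at 7.05 in KO 1 after rescaling and at 1.08 to 2.01 in the others. Of the same list, Slc40a1, an iron exporter gene, went the other way, with 5.15 in KO 1 and 6.30 to 6.67 in the others. Fabp6, the bile acid binding protein of the ileum, was 3.91 in KO 1 after rescaling and 8.16 to 8.76 in the others. Slc10a1, which the ileal list held though it is not an ileal marker, was higher in KO 1, at 1.18 against 0.39 to 0.75. Summed over the markers that KO 1 covers, abundance was 202 in KO 1 against 81.6 to 104 elsewhere for the proximal list (4 of 5 markers). For the ileal list it was 15.3 against 286 to 432 (2 of 4, Fabp6 and Slc10a1). The 5 libraries are thus low in Gata4 and Lct and high in Fabp6, which goes against the segment named in the design text. Of the genes in the series title, the RNA helicase gene Dhx9 was at 6.17 in KO 2 and 6.08 in KO 3 (6.03 in KO 1 after rescaling), against 5.94 to 6.01 in WT. Ffar3, which encodes GPR41, was at 0.35 in KO 2 and 0.59 in KO 3, against 0.18 to 0.60 in WT. The main comparison therefore sets KO 2 and KO 3 against the 3 WT libraries, and KO 1 is given beside it.

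Values are log2(abundance + 1) as deposited. The abundance unit, and so whether it is scaled by gene length, was not stated, and levels are not ranked between genes. Over KO 2, KO 3 and the WT libraries, 28 of the 54 genes averaged 1 or more, 14 averaged 0.1 to 1, 8 were above 0 but under 0.1, and 4 (Dkk4, Wnt1, Wnt3a and Wnt7a) were listed at 0 in all 5 libraries. Wnt10a, Wnt7b and Wnt8a were above 0 in 1 library each. These 7 genes did not pass the filter of a value above 0 in at least 2 of the 5 libraries, which 47 members passed.

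**Figure D1:**
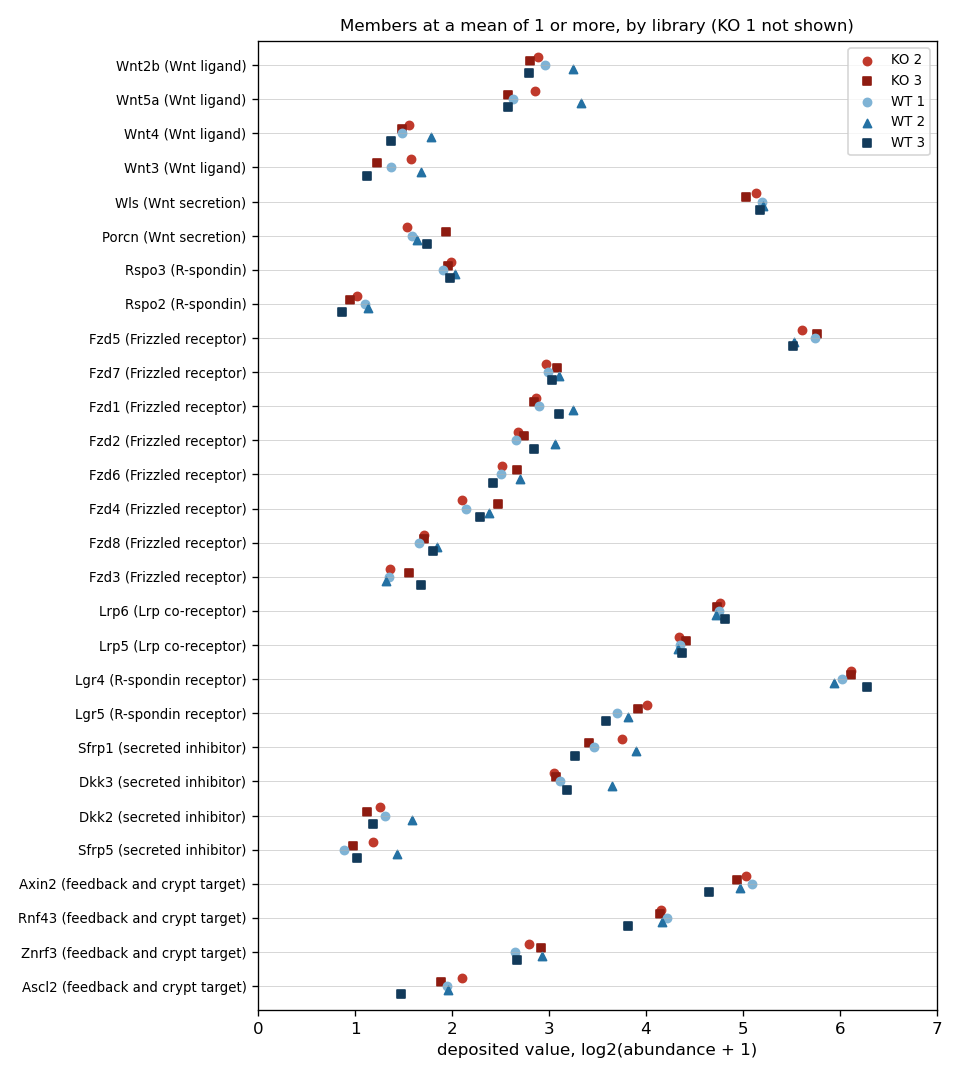
Deposited values, log2(abundance + 1), of the 28 genes that averaged 1 or more, 1 point per library (red KO 2 and KO 3, blue WT 1 to WT 3), grouped by role. The KO and WT points lie among each other for most genes, and WT 2 is the rightmost point for 17 of the 28.

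No Wnt pathway member passed the test between KO and WT. By limma over 23408 genes, with Benjamini-Hochberg adjustment, 0 of the 47 members passed an adjusted p of 0.05 and all 47 had an adjusted p of 0.99997; over all genes 1 was called (0.00427%). At an unadjusted p under 0.05 stood 3 members, Lgr5, Fzd10 and Wif1 (6.38%), against 565 of all genes (2.41%). That count of 3 was 0 with median centring, with KO 1 in the fit and with the stricter filter, which drops Fzd10 and Wif1. It was 1 with the replicate block, with robust variances, with an added constant of 0.1, or without WT 1 or WT 3. Without a variance trend it was 2. It stayed 3 with quantile normalization, no filter, an added constant of 5, or without WT 2. The folds of the members ran from -0.26 for Dkk3 to 0.26 for Lgr5, as log2 of KO over WT, with a median of 0.01 (0.02 over all genes). With KO 1 left out, the 95% intervals of all 47 lay within a log2 fold of 1 either way. The lowest bound was -0.78, for Wnt5a, and the highest 0.72, for Ascl2. With KO 1 rescaled in the fit, lower bounds passed this limit for Fzd2 (-1.81), Rspo3 (-1.72), Fzd3 (-1.17) and Wnt5a (-1.09). For genes near 0 this scale, with its added constant of 1, understates a change. An added constant of 0.1, also without KO 1, kept the intervals of all 28 members averaging 1 or more within that limit. Of the 19 lower members, only 9 had intervals within it. Wnt16 was then at 0.81 ± 0.39, Fzd10 at 0.69 ± 0.33, Wif1 at 0.61 ± 0.25 and Sfrp4 at -0.52 ± 0.34, and limma called 0 members. Of the members, 27 were higher and 20 lower in KO, beside 60.8% of all genes higher. This split turned to 12 higher and 35 lower with each library centred on its median (41.4% of all genes higher), and to 16 and 31 with quantile normalization (49.9%). It was 18 higher and 29 lower with the replicate block or without WT 1 (58.1% of all genes higher in each), 20 and 27 without KO 3 (57.8%), and 22 and 25 without WT 3 (57.6%). The block and the fit without WT 1 are not separate here. With KO 1 left out, WT 1 stands alone in its block, so both give the same folds.

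**Figure D2:**
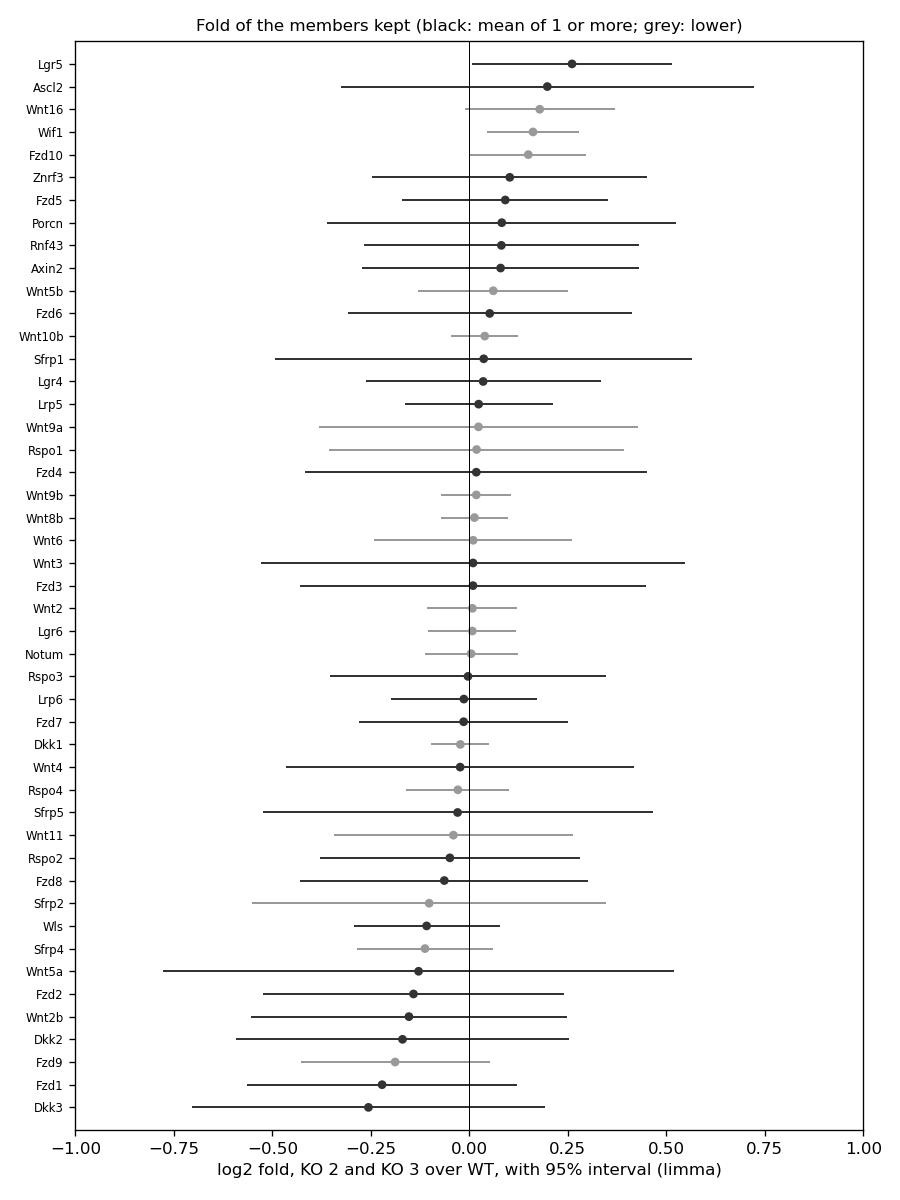
Log2 fold of KO 2 and KO 3 over WT with its 95% interval (limma) for the 47 genes kept, in order of fold; genes averaging 1 or more are black and lower ones grey. The intervals of Lgr5, Wif1 and Fzd10 lie above 0 before adjustment, and all 47 intervals lie between -1 and 1 on this scale.

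Non-overlapping groups were about as common among the higher members as among all genes. KO 2 and KO 3 both lay above all WT libraries for Lgr5, Fzd10, Wif1, Wnt10b and Wnt16, which is 5 of 47 (10.6%) against 9.76% of all genes. Both lay below all WT libraries for Dkk3, Fzd1, Fzd9 and Wls, which is 4 of 47 (8.51%) against 3.55% of all genes.

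The series title concerns intestinal stem cells, on which the crypt genes bear directly. Lgr5, the receptor that marks stem cells of the crypt base (chromosome 10, 115450311 to 115587780, minus strand), stood at 4.01 and 3.92 in KO 2 and KO 3, against 3.71, 3.82 and 3.59 in WT 1, WT 2 and WT 3. Both KO libraries were above every WT library, by a log2 fold of 0.26 ± 0.10 (SE; 95% interval 0.01 to 0.52; limma adjusted p = 0.99997). Leaving out any 1 of the 5 libraries gave 0.20 to 0.32. With KO 1 rescaled, at 2.91 the lowest of the 6, the fold became -0.09 ± 0.29.

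Ascl2, a transcription factor of crypt stem cells (chromosome 7, 142966829 to 142969264, minus strand), stood at 2.10 and 1.88 in KO 2 and KO 3, against 1.95, 1.96 and 1.48 in WT. The groups overlapped, and WT 3 was the low value (log2 fold 0.20 ± 0.21; 0.04 without WT 3, 0.09 without KO 2, 0.31 without KO 3). Axin2, a scaffold protein that limits beta-catenin and a widely used readout of the pathway (chromosome 11, 108920349 to 108950783, plus strand), stood at 5.03 and 4.94 in KO 2 and KO 3, against 5.09, 4.97 and 4.65 in WT. Its fold was 0.08 ± 0.14 and turned to -0.05 without WT 3, again the low library. Rnf43 stood at 4.15 in both KO 2 and KO 3, against 4.22, 4.17 and 3.81 in WT (log2 fold 0.08 ± 0.14, and -0.05 without WT 3). Znrf3, its paralog, stood at 2.79 and 2.92 in KO 2 and KO 3, against 2.65, 2.93 and 2.68 in WT (log2 fold 0.10 ± 0.14; from 0.04 without KO 3 to 0.19 without WT 2).

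The other R-spondin receptors gave smaller differences. Lgr4, the receptor found across the epithelium, stood at 6.11 and 6.12 in KO 2 and KO 3, against 6.02, 5.94 and 6.28 in WT (log2 fold 0.03 ± 0.12). Lgr6, a close relative better known from skin, was at 0.12 to 0.21 in these 5 libraries and at 0.08 in KO 1 after rescaling.

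Among the ligands, 13 of 19 were kept, with 9 higher and 4 lower in KO and a median log2 fold of 0.01. Wnt3, which Paneth cells make beside the stem cells (chromosome 11, 103774150 to 103817957, plus strand), stood at 1.57 and 1.23 in KO 2 and KO 3, against 1.37, 1.68 and 1.13 in WT. The groups overlapped fully (log2 fold 0.01 ± 0.22, from -0.16 without KO 2 to 0.18 without KO 3). The 7 Paneth markers, among them lysozyme and alpha-defensins, were all detected, and their summed abundance was 2453 and 2190 in KO 2 and KO 3, against 2460, 2526 and 2095 in WT. Wnt3 and this sum were both highest in WT 2 and lowest in WT 3, but the single markers did not share that order. Defa22 was lowest in WT 3, while Lyz1, Defa17, Defa24, Mmp7, Ang4 and Itln1 were lowest in KO 3. The median log2 difference of the markers from the WT mean was -0.20 in KO 3 and -0.12 in WT 3. The part of these markers in the Wnt3 values was not tested. In bulk RNA, fewer cells of a type and less RNA per cell cannot be told apart.

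Wnt2b, a ligand of the stromal cells around the crypt (chromosome 3, 104945272 to 104961921, minus strand), stood at 2.89 and 2.80 in KO 2 and KO 3, against 2.96, 3.25 and 2.79 in WT. Wnt5a, which signals mainly without beta-catenin (chromosome 14, 28504750 to 28527448, plus strand), stood at 2.86 and 2.58 in KO 2 and KO 3, against 2.63, 3.34 and 2.58 in WT. For both genes WT 2 was the highest library and the others lay close together. The log2 fold was -0.15 ± 0.16 for Wnt2b (-0.03 without WT 2, -0.26 without WT 3) and -0.13 ± 0.26 for Wnt5a (0.11 without WT 2). Wnt4 was also highest in WT 2 and lowest in WT 3: KO 2 had 1.56 and KO 3 had 1.48, against 1.49, 1.78 and 1.37 in WT. Wnt16 and Wnt10b were low in every library: Wnt16 stood at 0.21 and 0.40 in KO 2 and KO 3, against 0.17, 0.04 and 0.18 in WT (log2 fold 0.18 ± 0.08), and Wnt10b at 0.11 and 0.08 against 0.07, 0.03 and 0.07 (0.04 ± 0.03). Without KO 3 the Wnt16 fold was 0.08, and without KO 2 it was 0.27; the Wnt10b fold was 0.02 without KO 2 and 0.03 without WT 2. The nearest libraries of the groups for Wnt10b, KO 3 and WT 3, were almost equal.

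Wnt9a, Wnt11, Wnt5b, Wnt6 and Wnt2 averaged between 0.1 and 1, with log2 folds from -0.04 for Wnt11 to 0.06 for Wnt5b. Wnt9b ran from 0.08 to 0.14 and Wnt8b from 0.00 to 0.06 over the 5 libraries. Of the secretion genes, Wls (chromosome 3, 159839672 to 159938664, plus strand) stood at 5.14 and 5.04 in KO 2 and KO 3, against 5.20, 5.21 and 5.18 in WT. Both KO libraries were below the narrow WT range, and the log2 fold was -0.11 ± 0.07 (95% interval -0.29 to 0.08). It was -0.06 without KO 3 and -0.16 without KO 2. Porcn stood at 1.54 and 1.93 in KO 2 and KO 3, against 1.59, 1.63 and 1.74 in WT, with KO 2 the lowest and KO 3 the highest library.

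Of the R-spondins, which are made by stromal cells and raise Wnt signalling in the crypt, Rspo3 and Rspo2 were close to equal in the groups. Rspo3 (chromosome 10, 29452416 to 29535867, minus strand) stood at 1.98 and 1.96 in KO 2 and KO 3, against 1.90, 2.03 and 1.98 in WT, with a log2 fold of -0.0036 ± 0.14 and a 95% interval from -0.35 to 0.35. Rspo2 stood at 1.02 and 0.95 in KO 2 and KO 3, against 1.10, 1.14 and 0.87 in WT (-0.05 ± 0.13). With KO 1 rescaled in the fit, the Rspo3 fold was -0.58, with a 95% interval from -1.72 to 0.56. The Rspo2 fold was then -0.30, with an interval from -0.84 to 0.24. Rspo1 and Rspo4 were lower, at 0.17 to 0.65 and at 0.00 to 0.14 over the 5 libraries. With an added constant of 0.1 their 95% intervals were wide, from -1.12 to 1.38 for Rspo1 and from -1.07 to 0.68 for Rspo4.

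All 10 Frizzled genes were kept, 5 higher and 5 lower in KO. Fzd5, a Frizzled of the intestinal epithelium, stood at 5.61 and 5.76 in KO 2 and KO 3, against 5.74, 5.52 and 5.52 in WT (log2 fold 0.09 ± 0.11). Fzd7, a receptor of crypt stem cells, stood at 2.97 and 3.08 in KO 2 and KO 3, against 2.99, 3.10 and 3.03 in WT (-0.01 ± 0.11). The groups overlapped for both receptors. Fzd2, Fzd3, Fzd4, Fzd6 and Fzd8 overlapped too, with log2 folds from -0.14 for Fzd2 to 0.05 for Fzd6. Fzd1 stood at 2.86 and 2.85 in KO 2 and KO 3, against 2.89, 3.24 and 3.10 in WT, a log2 fold of -0.22 ± 0.14 that was -0.14 without WT 2. Fzd9 was low, at 0.52 and 0.51 in KO 2 and KO 3 against 0.63, 0.84 and 0.64 in WT (-0.19 ± 0.10, and -0.12 without WT 2), and so was Fzd10, at 0.31 and 0.30 against 0.16, 0.24 and 0.07 (0.15 ± 0.06, limma adjusted p = 0.99997). The co-receptors were close in all 5 libraries: Lrp5 was 4.34 in KO 2 and 4.41 in KO 3, against 4.33 to 4.37 in WT, and Lrp6 was 4.76 in KO 2 and 4.74 in KO 3, against 4.72 to 4.81 in WT.

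Of 10 secreted inhibitors, 9 were kept, 3 higher and 6 lower in KO. Dkk3, a divergent member of the Dickkopf family, stood at 3.06 and 3.07 in KO 2 and KO 3, against 3.12, 3.65 and 3.19 in WT. Both KO libraries were below the WT range, and the log2 fold of -0.26 ± 0.18 was -0.09 without WT 2, the highest library. Dkk2 stood at 1.26 and 1.13 in KO 2 and KO 3, against 1.31, 1.59 and 1.19 in WT (-0.17 ± 0.17; -0.06 without WT 2, -0.11 without KO 3, -0.26 without WT 3). Sfrp1, a decoy that binds Wnt ligands (chromosome 8, 23411502 to 23449632, plus strand), stood at 3.75 and 3.41 in KO 2 and KO 3, against 3.47, 3.90 and 3.27 in WT (0.04 ± 0.21). Its groups overlapped, and WT 2 was again the highest. Sfrp4 was low, with 0.23 and 0.09 in KO 2 and KO 3, against 0.23, 0.21 and 0.36 in WT (-0.11 ± 0.07; -0.05 without KO 3, -0.07 without WT 3, -0.18 without KO 2). Sfrp5 and Sfrp2 had log2 folds of -0.03 ± 0.20 and -0.10 ± 0.18, and Dkk1 was under 0.05 in all 5 libraries. Wif1, another Wnt-binding inhibitor, was the member with the smallest p: it stood at 0.37 and 0.40 in KO 2 and KO 3, against 0.20, 0.25 and 0.21 in WT, a log2 fold of 0.16 ± 0.05 (95% interval 0.04 to 0.28; limma adjusted p = 0.99997). Leaving out any 1 library gave 0.15 to 0.18. KO 1 stood at 0.13 after rescaling, under all the others, and with it the fold was 0.08 ± 0.08. Notum, an enzyme that removes the Wnt lipid, was at 0.18 to 0.26 in the 5 libraries and listed at 0 in KO 1.

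WT 2 was high for many members. It was the highest of the 5 libraries for 17 of the 28 members averaging 1 or more (60.7%), among them all 4 such ligands and all 4 such inhibitors, while it was the highest for 22.2% of all genes at that level. The 15 fibroblast and telocyte markers, all detected, summed to 704 and 755 in KO 2 and KO 3, against 745, 985 and 820 in WT, so WT 2 was also highest there. Of these markers 1 was higher and 14 were lower in KO, with a median log2 fold of -0.21; by limma 0 were called and 0 had an unadjusted p under 0.05. The 8 smooth muscle markers summed to 1155 and 1548 in KO 2 and KO 3, against 1111, 1487 and 1426 in WT. That sum was highest in KO 3, not in WT 2. The 8 epithelial markers summed to 1319 and 1523 in KO 2 and KO 3, against 1531, 1222 and 1516 in WT, lowest in WT 2. The 6 immune markers summed to 93.2 and 20.7 in KO 2 and KO 3, against 22.6, 63.8 and 16.8 in WT, highest in KO 2 and WT 2. WT 3 was the lowest library for 12 of the 28 members (42.9%, against 28.2% of all genes), among them Lgr5, Ascl2, Axin2 and Rnf43. The part of the marker levels in the values of these members was not tested.

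**Figure D3:**
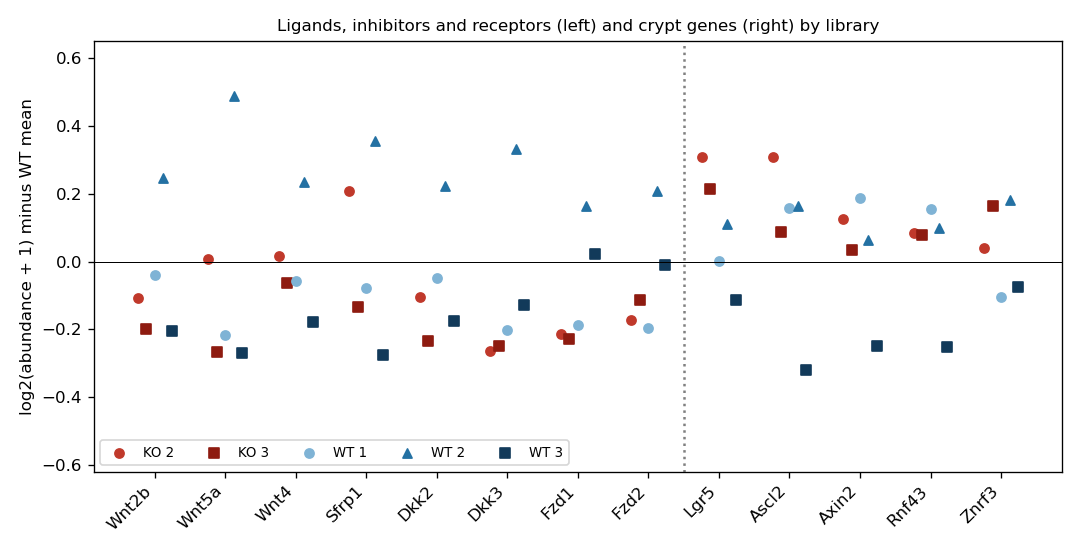
Log2(abundance + 1) minus the WT mean for 8 ligand, inhibitor and receptor genes (left of the dotted line) and 5 crypt genes (right), 1 point per library (red KO 2 and KO 3, blue WT 1 to WT 3). WT 2 (triangle) is the highest point for each of the 8 genes on the left, which follows from the choice of genes drawn. All 8 are among the 17 members highest in WT 2, and Fzd3, Lgr4, Lrp5 and Lrp6, lowest in WT 2, are not drawn. WT 3 (dark blue square) is the lowest for Lgr5, Ascl2, Axin2 and Rnf43.

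KO 1 covered 15 of the 28 members averaging 1 or more. After rescaling, 10 of these lay below the range of the other 5 libraries (42.2% of all covered genes at that level did) and 2, Fzd7 and Lrp5, above it (21.5%). The stromal ligand Rspo3 stood at 0.23 in KO 1, against 1.90 to 2.03 elsewhere, an abundance 15.6 times below the lowest other library. Rspo2 stood at 0.23 against 0.87 to 1.14, Fzd2 at 1.04 against 2.66 to 3.06, and Fzd3 at 0.33 against 1.32 to 1.68. These 4 were below the others even as deposited, before rescaling (9.56% of covered genes were). Fzd6, Fzd8, Lgr5, Wnt3, Wnt5a and Znrf3 were below the range after rescaling alone.

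Axin2, Rnf43 and Fzd5 lay within the other libraries in KO 1, and Lrp5 just above them. Axin2 stood at 4.91 in KO 1 after rescaling, against 4.65 to 5.09 elsewhere, Rnf43 at 3.93 against 3.81 to 4.22, Fzd5 at 5.63 against 5.52 to 5.76, and Lrp5 at 4.42 against 4.33 to 4.41. Notum was listed at 0 in KO 1 on a chromosome that it covers. Over the markers that KO 1 covers, the fibroblast and telocyte sum was 166 in KO 1 against 470 to 676 elsewhere (9 of 15 markers), the smooth muscle sum 26.5 against 336 to 458 (4 of 8), the Paneth sum 455 against 641 to 885 (3 of 7), and the epithelial sum 1576 against 1021 to 1294 (6 of 8). The part of these markers, and of the gut segment, in the KO 1 values was not tested. With all 6 libraries in the fit (KO 1 rescaled, and left out for uncovered genes), limma called 0 of 47 members and 0 of 23408 genes (0%), with 0 members and 516 genes at an unadjusted p under 0.05.

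**Figure D4:**
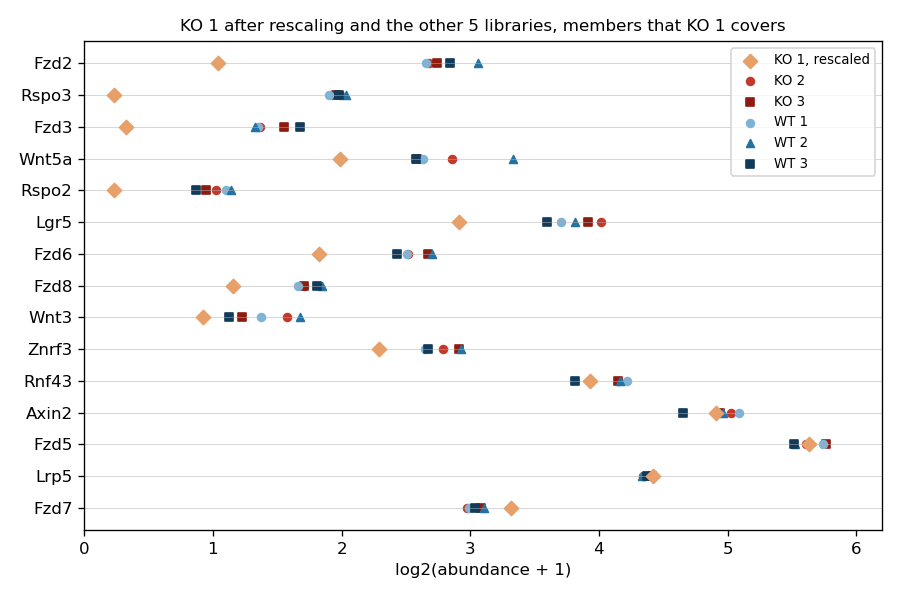
Log2(abundance + 1) of the 15 members that KO 1 covers and that averaged 1 or more elsewhere, with KO 1 after rescaling as orange diamonds, KO 2 and KO 3 in red and WT in blue, ordered by the distance of KO 1 from the WT mean. Fzd2 and Rspo3 are farthest below the other libraries, while Rnf43, Axin2 and Fzd5 lie within them.

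Other genes of the pathway were read from lists that share no gene with the members. Of 28 genes of Wnt transduction inside the cell, 20 were higher and 8 lower in KO (median log2 fold 0.06); by limma 0 passed and 2 had an unadjusted p under 0.05. These were Csnk1e, a casein kinase that acts on Dishevelled, at 3.93 and 4.10 in KO 2 and KO 3 against 3.61, 3.72 and 3.46 in WT (0.42 ± 0.12), and Apc, the scaffold of the beta-catenin destruction complex, at 4.98 and 4.94 against 4.62, 4.74 and 4.68 (0.27 ± 0.08). Both had KO 2 and KO 3 above the WT range and an adjusted p of 0.99997. After rescaling, Csnk1e was at 3.29 and Apc at 4.61 in KO 1, below all the other libraries, though Apc was almost equal to WT 1. As deposited, both were highest in KO 1, at 4.30 and 5.67. Of all covered genes averaging 1 or more, 42.2% lay below the other libraries in KO 1 after rescaling. Bcl9 and Bcl9l, co-activators of beta-catenin, overlapped between the groups (0.18 ± 0.13 and 0.19 ± 0.15). The largest fold of the list, 0.60, was that of Tcf7, at 3.78 and 2.60 in KO 2 and KO 3 against 2.17, 3.37 and 2.25 in WT. The immune sum was also highest in KO 2 and WT 2, and its part in Tcf7 was not tested. Beside this list and those below, 60.8% of all genes were higher, with a median of 0.02. By limma 2.41% of all genes had an unadjusted p under 0.05.

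Of 21 further crypt and Wnt target genes, 20 were kept, 12 higher and 8 lower (median log2 fold 0.02); by limma 0 were called and 0 had an unadjusted p under 0.05. Ephb3, a receptor that positions cells in the crypt, stood at 3.44 and 3.30 in KO 2 and KO 3 against 3.25, 3.24 and 2.91 in WT (0.23 ± 0.14), and Soat1, a cholesterol esterifying enzyme, at 3.54 and 3.56 against 3.33, 3.46 and 3.35 (0.17 ± 0.10). KO 1 was again the lowest of the 6 libraries after rescaling, at 2.42 for Ephb3 and 2.96 for Soat1, as for 42.2% of covered genes averaging 1 or more. As deposited, KO 1 was within the others for Ephb3, at 3.35, and the highest for Soat1, at 3.95. Sox9, a transcription factor of crypt cells, at 0.19 ± 0.13, and Nkd1, a feedback inhibitor, at -0.18 ± 0.13, had overlapping groups. Sox9 in KO 1 was at 2.79 after rescaling, below the other 5 libraries, and at 3.76 as deposited, above them. Of 22 further extracellular modulators, 19 were kept, 8 higher and 11 lower (median -0.01); Draxin (0.18 ± 0.12), Gpc3 (0.19 ± 0.14), Gpc4 (-0.09 ± 0.08) and Cthrc1 (-0.12 ± 0.10) had the smallest p. Of 17 genes of planar polarity and beta-catenin-independent signalling, 10 were higher and 7 lower (median 0.04), with Celsr2 at 0.17 ± 0.15, Celsr1 at 0.12 ± 0.12 (2.54 in KO 1 after rescaling, against 3.29 to 3.62 elsewhere), Musk at -0.19 ± 0.19 and Prickle3 at 0.14 ± 0.17. In both lists 0 genes passed by limma and 0 had an unadjusted p under 0.05.

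Whether counting used the strand was not stated, so reads from overlapping exons of antisense neighbours cannot be separated. This touches 9 members, Axin2, Fzd5, Fzd6, Notum, Rspo3, Sfrp2, Wnt11, Wnt5a and Wnt7b, and 23 of the 87 pathway list genes placed on the genome, among them Csnk1e, Bcl9l and Prickle3 of those named above.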

How the data were processed

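Per the labels, TRIzol RNA was selected for poly(A) and made into libraries with a stranded low-input kit. The authors deposited 1 table of log2(abundance + 1) values for the 6 libraries. The build is mm10, per the submitters' processing notes; the aligner, the counting tool, the abundance unit and the strand setting were not stated by any source used here, and depth is unknown. Base 2 was read from the values: raised as powers of 2, 100% of 109612 values under 5 were whole millionths within 0.05 of a millionth, against 10.1% for base e. Of 32245 rows, 26 with a date for a symbol were left out. GENCODE M21 (GRCm38) placed 31398 symbols.

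The filter, a value above 0 in at least 2 of KO 2, KO 3 and the WT libraries, kept 23408 genes. The KO and WT libraries were then tested with limma (version 3.58.1, R version 4.3.3), using a trended variance and 2-sided p-values, with Benjamini-Hochberg adjustment over all genes kept and a threshold of 0.05. The test was tried on simulated data. Folds are on the log2(abundance + 1) scale. Alternatives were a replicate block, other scalings, filters, constants and variance models, each library left out, and KO 1 as deposited or rescaled.

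The members, the lists and the settings were chosen with earlier results of these data known. Named in full are 11 genes picked by role and the 6 members with the smallest p in each direction, and of each pathway list the 4 with the smallest p. Genes named beside these were added after their values were seen.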

Additional observations from a re-analysis of the deposited data

How the results depend on the processing

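Under every setting tried, limma called 0 members, both for KO 2 and KO 3 against WT and with KO 1 rescaled. The 1 gene called over all genes, Gm49380, was not called (0 genes) with the replicate block, no filter, the stricter filter, an added constant of 0.1, or all 6 libraries, as deposited or with KO 1 rescaled, and leaving out each library gave 0 to 0. The median log2 fold of the members, 0.01, was -0.01 with the replicate block, ran from -0.01 to 0.03 over left-out libraries, and was -0.11 with all 6 libraries as deposited, where missing values of KO 1 enter as 0.

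Of 314 folds of the 20 named members under other settings, 289 kept their sign and 25 turned it. Many of the 289 could not turn, so the count is no measure of stability. Other filters and variance models leave a fold unchanged, as does KO 1 rescaled for genes that it does not cover. The replicate block repeats the folds of the fit without WT 1, which stands alone in its block. With the replicate block Wnt3 (0.01) was at -0.0011 and Sfrp1 (0.04) at -0.0027. Median centring gave Wnt3 -0.035, Sfrp1 -0.0077 and Wnt10b -0.0050, and quantile normalization gave Wnt3 -0.040 and Sfrp1 -0.010. As deposited with KO 1, Ascl2 was at -0.47 and Sfrp1 at -1.16, from zeros that are missing values. With KO 1 rescaled, Lgr5 was at -0.090, Znrf3 at -0.086 and Wnt3 at -0.15. Over left-out libraries, Wnt3 ran from -0.16 to 0.18, Sfrp1 from -0.13 to 0.21, Wnt5a from -0.27 to 0.11, Rspo3 from -0.038 to 0.027, Axin2 from -0.046 to 0.17 and Rnf43 from -0.045 to 0.16.

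The replicate block changed no call among the members. Deviations from the group mean, for KO and WT libraries of the same number, had correlations of 0.23, 0.47 and 0.073 for numbers 1, 2 and 3. These were taken over 10530 genes with KO 1 rescaled, so KO 1 enters the KO mean. Libraries of different numbers were not compared, so the values cannot show a pairing. The labels do not say that the numbers pair the libraries.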
